A study of Mus musculus with 7 samples.

Results

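Sialyltransferases transfer sialic acid to the ends of sugar chains. The 10 genes described here (St3gal1, St3gal2, St3gal3, St3gal4, St3gal5, St3gal6, St6gal1, St8sia1, St8sia4 and St8sia6) were chosen by symbol from the 32285 genes counted in mouse bone marrow cells, and each symbol was found once. By enzyme family 7 of the 10, the St3gal genes and St6gal1, encode enzymes that cap a galactose. The other 3, the St8sia genes, encode enzymes that extend a chain on a sialic acid already in place, so the name "galactose-capping" does not hold for all 10.

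Sialic acid is the outermost sugar of most glycoproteins and of the glycolipids called gangliosides. The galactose that lies beneath it on N-linked chains is added by the B4GALT enzymes, of which B4GALT1 is the best known, and without that galactose an α2,3- or α2,6-sialyltransferase has no acceptor on that branch. In blood and bone marrow, sialylated chains are read by selectins and Siglecs, and exposed galactose is read by galectins and by the Ashwell-Morell receptor of the liver.

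The cells are LSK cells, a sorted bone marrow fraction that lacks lineage markers, carries Sca-1 and cKit, and holds the blood stem cells and the earliest progenitors. Of the 7 single-cell RNA libraries, 3 are labelled B4galt1 KO (genotype 129S1/C57Bl/6, B4-/-, a full knockout) and 4 are labelled WT (genotype 129S1/C57Bl/6), so both groups share a mixed strain background. They are called KO 1 to KO 3 and WT 1 to WT 4 here. The age of the mice, the deleted exons and whether a library comes from 1 animal or a pool are not given in the sources used here, so p-values measure the spread between these libraries only.

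The libraries held 14970791 to 89747946 UMIs, and 1172 to 8862 cells per library passed the filter, with a median of 8046 to 11084 UMIs per cell. Values are the UMIs of a gene divided by all UMIs of the same cells and scaled to counts per 1000000 (CPM). B4galt1 RNA was present in every library: it stood at 51.2, 55.6 and 27.4 CPM in KO 1, KO 2 and KO 3, and at 56.4, 69.2, 56.7 and 34.8 CPM in WT 1 to WT 4. The KO-labelled libraries were lower within each barcode list described below, by little in list A, and the difference over both lists did not pass the test (log2 difference -0.14, SE 0.12, adjusted p = 0.537 with edgeR). A 3′ tag outside a deleted part cannot check a deletion, so each library is named by its label. Kit stood at 137 to 311 CPM and the Sca-1 gene Ly6a at 16.6 to 48.2 CPM in all 7 libraries, while the lineage genes Cd3e and Ly6g each stayed at or below 4.02 CPM. The cell barcodes came from 2 different sequence lists, told apart by the first 6 bases of the barcodes. KO 1, KO 2, WT 1, WT 2 and WT 3 use list A, and KO 3 and WT 4 use list B. Pairs of libraries shared 874 to 952 of these openings within list A, 480 within list B and 118 to 128 across lists. Of whole barcodes KO 3 and WT 4 shared 88, and pairs within list A 2 to 7. Ribosomal protein genes took 13.7% to 20.8% of UMIs in the libraries of list A and 30% in both of list B, so label differences were fitted with the list as a covariate. The filter kept 32.4% to 49.9% of the barcodes in the libraries of list A, 98.3% in KO 3 and 96.2% in WT 4.

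Cells were sorted into gates by the markers they express, none of them a sialyltransferase. The stem gate asks for at least 3 of a list of genes such as Procr, Hlf and Mecom and is split into cells with and without cell cycle genes; the non-cycling part is the reference in what follows. Flt3 and Dntt are known from multipotent progenitors that begin to express lymphoid genes and define a gate each, the early lymphoid gate adds Il7r, Rag1 or Rag2, Mpo-positive and granule-gene-high cells carry neutrophil granule genes, and the monocyte-primed gate asks for at least 3 of genes such as Irf8 and Csf1r. A difference is called, and described as a rise or fall, where its p adjusted over all genes is below 0.05. With the cells past no gate, 8 gates held at least 20 cells in every library. Gates are ranges of marker expression and not cell types: 48.0% to 86.6% of the monocyte-primed cells of a library were also past another committed gate. In the sums over a gate, fewer cells that express a gene and less RNA per cell cannot be told apart.

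The start of each gene shows what lies upstream of the members that moved together between gates. The windows are the 250 bases before a transcription start in RefSeq (build GRCm38.p6), read on the gene's strand, and capitals mark matches to 5 short motifs searched on both strands. These were TGTGGT for the RUNX factors, CAGGAAG for the ETS factors, AGATAA for the GATA factors, and 2 E boxes, one of them CAGCTG, the other CACCTG. St8sia4, St8sia1 and St6gal1 are shown because all 3 rose in Dntt-positive cells, and St3gal6 because it fell in granule-gene-high cells. The St8sia4 window (chr1:95667595-95667844, minus strand) held 2 TGTGGT matches, a motif found in 14.05% of 32851 windows of the same length.
St8sia4: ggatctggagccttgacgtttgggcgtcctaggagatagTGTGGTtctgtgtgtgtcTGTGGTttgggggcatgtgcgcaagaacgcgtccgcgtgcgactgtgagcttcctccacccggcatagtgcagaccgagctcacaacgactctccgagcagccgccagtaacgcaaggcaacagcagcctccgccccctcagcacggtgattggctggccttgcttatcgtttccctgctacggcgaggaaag
St8sia1: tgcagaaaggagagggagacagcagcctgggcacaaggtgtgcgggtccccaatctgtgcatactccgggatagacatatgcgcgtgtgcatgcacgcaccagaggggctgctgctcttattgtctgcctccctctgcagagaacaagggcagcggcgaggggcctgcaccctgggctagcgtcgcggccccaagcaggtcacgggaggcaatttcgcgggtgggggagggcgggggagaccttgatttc
St6gal1: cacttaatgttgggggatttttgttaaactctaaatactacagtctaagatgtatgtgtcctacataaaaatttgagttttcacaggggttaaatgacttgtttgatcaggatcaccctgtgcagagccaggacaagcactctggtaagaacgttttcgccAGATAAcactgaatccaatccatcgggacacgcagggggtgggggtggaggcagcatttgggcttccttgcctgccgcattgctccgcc
St3gal6: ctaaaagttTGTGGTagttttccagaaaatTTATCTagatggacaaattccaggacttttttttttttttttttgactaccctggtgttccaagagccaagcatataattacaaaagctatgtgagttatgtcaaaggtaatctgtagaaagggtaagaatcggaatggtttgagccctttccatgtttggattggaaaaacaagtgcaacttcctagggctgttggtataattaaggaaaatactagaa
The St8sia1 window (chr6:142964453-142964702, minus strand) held no match to the 5 motifs. The St6gal1 window (chr16:23224490-23224739, plus strand) is the first of 3 listed starts and held 1 AGATAA match, found in 9.988% of windows, while the windows of its other starts held none. The St3gal6 window (chr16:58524254-58524503, minus strand), 1 of 2 listed starts, held 1 TGTGGT and 1 AGATAA match (TTATCT on the strand shown), its other window (chr16:58523427-58523676) held none, and no matches overlap one another. The other motifs were found in 10.82% (CAGGAAG), 13% (CAGCTG) and 17.22% (CACCTG) of windows. In the GENCODE M21 annotation of the same assembly, St8sia4 spans chr1:95587682-95667571, St8sia1 chr6:142821545-142964452 and St3gal6 chr16:58468125-58524243 on the minus strand, and St6gal1 chr16:23224740-23360350 on the plus strand. A match is a run of letters and not a bound site, and the 3 co-rising genes share no match among these windows.

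St3gal1, the enzyme that caps the galactose of core 1 O-glycans, had its highest mean in stem-gated cells and was called lower in 9 of 11 other gates, the ungated and megakaryocyte-gated cells being the exceptions (in the latter -0.16, adjusted p = 0.292). In non-cycling stem-gated cells it stood at 111, 124 and 93.9 CPM in KO 1 to KO 3 and at 111, 154, 127 and 104 CPM in WT 1 to WT 4. In monocyte-primed cells it stood at 24.6, 22.4 and 23.8 CPM in the KO-labelled and at 29.1, 40.5, 39.1 and 35.2 CPM in the WT-labelled libraries, so no library of one gate reached a library of the other. Within libraries St3gal1 fell by 1.85 on the log2 scale (SE 0.09, adjusted p = 4.32e-29, edgeR quasi-likelihood test with Benjamini-Hochberg adjustment, lower in 7 of 7 libraries). It also fell in Dntt-positive (log2 fold change -1.41), granule-gene-high (-1.20), Flt3-positive (-0.85), Mpo-positive (-0.57) and cycling stem-gated cells (-0.33), each lower in 7 of 7 libraries. The order of the means ran from 118 ± 19.6 CPM (SD, n = 7) in the stem gate through 77.4 ± 13.6 in Mpo-positive, 64.0 ± 12.2 in Flt3-positive, 46.5 ± 9.51 in granule-gene-high and 43.0 ± 8.68 in Dntt-positive cells to 30.7 ± 7.58 in monocyte-primed cells. Ungated cells (99.2 ± 23.4) and cycling stem-gated cells (95.5 ± 13.7) stood next to the stem gate and were not separated from each other (higher in 4 of 7 libraries).

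St3gal2, which caps the same O-glycan galactose and also gangliosides, was called in 1 of 7 gates. It stood at 28.8 ± 10.8 CPM (SD, n = 7) in the stem gate, at 33.8 ± 15.9 in Flt3-positive and at 19.9 ± 6.95 in granule-gene-high cells, where the SD pools 2 barcode lists that differ for this gene. Within libraries St3gal2 was above its stem gate in 5 of 7 libraries in Flt3-positive cells and below it in 6 of 7 in granule-gene-high cells. Of its differences from the stem gate in 7 gates the last named alone passed the test, with a log2 fold change of -0.37 (SE 0.12, adjusted p = 0.00459). So of the pair acting on core 1, St3gal1 fell in 6 of the 7 gates tested and St3gal2 in 1.

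St3gal3, St3gal4 and St3gal6 encode the enzymes that add α2,3-linked sialic acid to N-acetyllactosamine ends, and the last of the 3, with St3gal4, is known for building selectin ligands on leukocytes. St3gal4 had 8 gate means that ran from 84.4 ± 18.8 to 109 ± 29.1 CPM (SD, n = 7), and among these gates it fell in Dntt-positive cells, by 0.21 (SE 0.07, adjusted p = 0.00619), a call that ended without KO 3 (adjusted p = 0.0638) and turned to 0.01 with cells thinned to equal depth. It rose in the megakaryocyte gate by 0.27 (SE 0.09, adjusted p = 0.0161, above the stem gate in 3 of 3 libraries). St3gal3 fell in the neutrophil gate (log2 fold change -0.99, SE 0.19, adjusted p = 1.05e-05, lower in 3 of 3 libraries with at least 20 such cells). In the 8 larger gates St3gal3 ran from 45.9 ± 16.8 to 70.2 ± 44.3 CPM, and its fall in monocyte-primed cells by 0.18 (adjusted p = 0.0426) ended when any 1 library but KO 3 was left out (adjusted p = 0.0656 to 0.281).

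St3gal6 fell in all 3 myeloid gates, the Mpo-positive, granule-gene-high and monocyte-primed cells. In non-cycling stem-gated cells it stood at 12.2, 5.74 and 21.9 CPM in KO 1 to KO 3 and at 8.45, 15.8, 10.9 and 27.1 CPM in WT 1 to WT 4. In granule-gene-high cells the same libraries gave 0.959, 1.54 and 4.62 CPM and 2.07, 1.34, 2.32 and 7.97 CPM, each lower than its own stem gate. St3gal6 fell there (log2 fold change -2.18, SE 0.26, adjusted p = 2.05e-10), in Mpo-positive cells (-1.41, SE 0.25, adjusted p = 5.94e-06) and in monocyte-primed cells (-1.81, SE 0.24, adjusted p = 2.70e-09). In Dntt-positive cells it stood at 15.5 ± 11.6 CPM (SD, n = 7) against 14.6 ± 7.59 in the stem gate, a difference of 0.13 (SE 0.22). St3gal6 was also called lower in cycling stem-gated (-0.68, adjusted p = 0.0227) and erythroid-leaning cells (-0.84, adjusted p = 0.0266), the first of which ended under DESeq2 (adjusted p = 0.176) and without KO 3 (0.151) or WT 4 (0.128). Without cells past more than 1 committed gate the log2 difference in monocyte-primed cells was -0.26 and no longer passed (adjusted p = 0.350).

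St6gal1, the enzyme that adds α2,6-linked sialic acid to N-glycans and is best known from B cells, rose along the lymphoid gates. It stood at 15.8, 9.09 and 2.80 CPM in KO 1 to KO 3 and at 0.384, 5.63, 5.25 and 3.11 CPM in WT 1 to WT 4 in the stem gate. In Dntt-positive cells it stood at 24.9, 22.0 and 5.23 CPM and at 7.74, 11.8, 17.5 and 6.41 CPM, higher in 7 of 7 libraries, although the 2 gates overlap between libraries. The rise was 1.15 (SE 0.30, adjusted p = 0.00159). In the early lymphoid gate, which has at least 20 cells in 6 libraries, St6gal1 stood at 75.5, 18.5, 22.1, 68.3, 56.3 and 28.9 CPM (KO 1, KO 3, WT 1 to WT 4) and rose by 3.11 (SE 0.28, adjusted p = 3.37e-15). It fell by 1.09 in granule-gene-high cells (SE 0.36, adjusted p = 0.00644), a call that ended without KO 1 (log2 difference -0.67, adjusted p = 0.113). It also fell in the megakaryocyte gate (-1.46, SE 0.53, adjusted p = 0.0215).

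St3gal5 makes the ganglioside GM3, and St8sia1 adds the next sialic acid to give GD3, so the pair works in sequence on glycolipids. St8sia1 rose by 1.95 in Dntt-positive (SE 0.32, adjusted p = 1.24e-06) and by 2.54 in early lymphoid cells (SE 0.35, adjusted p = 3.16e-09). It also rose by 1.55 in Flt3-positive cells (SE 0.42, adjusted p = 0.00599), a gate that asks for no lymphoid gene. In granule-gene-high cells St8sia1 fell (-1.82, SE 0.49, adjusted p = 0.00107). Its levels were low, with 2.49, 0 and 0.841 CPM in the stem gate of KO 1 to KO 3 (the 0 of KO 2 has an exact 95% Poisson upper bound of 1.76) and 3.84, 6.38, 6.26 and 2.21 CPM in that of WT 1 to WT 4, against 10.8, 1.69 and 2.99 CPM and 13.3, 12.9, 29.0 and 10.1 CPM in Dntt-positive cells. Every library was higher in the Dntt-positive than in its stem gate. St3gal5 showed no such rise in Dntt-positive cells (log2 difference -0.20, SE 0.20), and fell in Mpo-positive (-0.77), granule-gene-high (-0.82) and monocyte-primed cells (-0.61). The last of these turned to 0.15 without cells past more than 1 committed gate.

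St3gal5 was high in 2 small gates of cells with more mature genes. In the neutrophil gate (genes such as Ltf, Camp and Ngp) it stood at 12.1, 141 and 112 CPM in KO 1, WT 1 and WT 3, the libraries with at least 20 such cells, a rise of 3.38 over the stem gate (SE 0.31, adjusted p = 1.49e-15). In the erythroid-leaning gate (genes such as Gata1 and Klf1) it stood at 5.48, 12.2 and 43.0 CPM in KO 1, KO 3 and WT 4, a rise of 2.02 (SE 0.26, adjusted p = 5.87e-10). The range over libraries within each of these gates was wide, and KO 1 was the lowest library in both. The cells differed too: in the neutrophil gate 77.3% of the cells of KO 1 were also past another committed gate, against 27.3% in WT 1 and 31.0% in WT 3, and in the erythroid-leaning gate 50% in KO 1, 13.3% in KO 3 and 7.94% in WT 4. The part of this in the St3gal5 levels was not tested.

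St8sia4 encodes a polysialyltransferase, which builds long sialic acid chains on carriers such as NCAM. It stood at 128, 171 and 45.6 CPM in KO 1 to KO 3 and at 119, 202, 170 and 65.1 CPM in WT 1 to WT 4 in the stem gate, and at 170, 342 and 115 CPM and 206, 293, 209 and 105 CPM in Dntt-positive cells. Every library was higher in the second gate, a rise of 0.76 (SE 0.11, adjusted p = 4.63e-08). St8sia4 also rose in early lymphoid (0.85), monocyte-primed (0.70) and Flt3-positive cells (0.51), and fell in cycling stem-gated (-0.40), erythroid-leaning (-0.66), neutrophil-gated (-0.86) and megakaryocyte-gated cells (-1.26, SE 0.22, adjusted p = 4.24e-06). The rise in monocyte-primed cells was 1.02 without cells past more than 1 committed gate.

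St8sia6, which adds a second sialic acid to glycoproteins, had too few counts for a test in the 8 gates: 12 to 122 UMIs in a whole library. Its mean was 0.730 CPM in the stem gate, 3.77 in ungated and 1.98 in Mpo-positive cells, the last 2 each above the stem gate in 6 of 7 libraries. Some rarer gates, held by only some of the libraries, also stood above the stem gate. In the erythroid-leaning gate St8sia6 stood at 6.85, 8.94 and 8.94 CPM in KO 1, KO 3 and WT 4 (log2 difference from the stem gate 4.37, SE 0.46). In the megakaryocyte gate it stood at 17.0, 2.84 and 1.68 CPM in the same libraries (3.04, SE 0.50). St8sia6 entered only the added fit of gates with at least 20 cells in 3 or more libraries. It could pass the count filter of that fit through the very gates where it was high, so its calls there are no separate support. In the basophil and mast cell gate, with genes such as Cpa3 and Ms4a2, 10 UMIs over 54 cells of KO 3 gave 12.9 CPM (exact 95% Poisson interval 6.19 to 23.7) and 25 UMIs over 38 cells of WT 4 gave 50.5 CPM (32.7 to 74.5). Intervals cover counting error only.

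**Figure D1:**
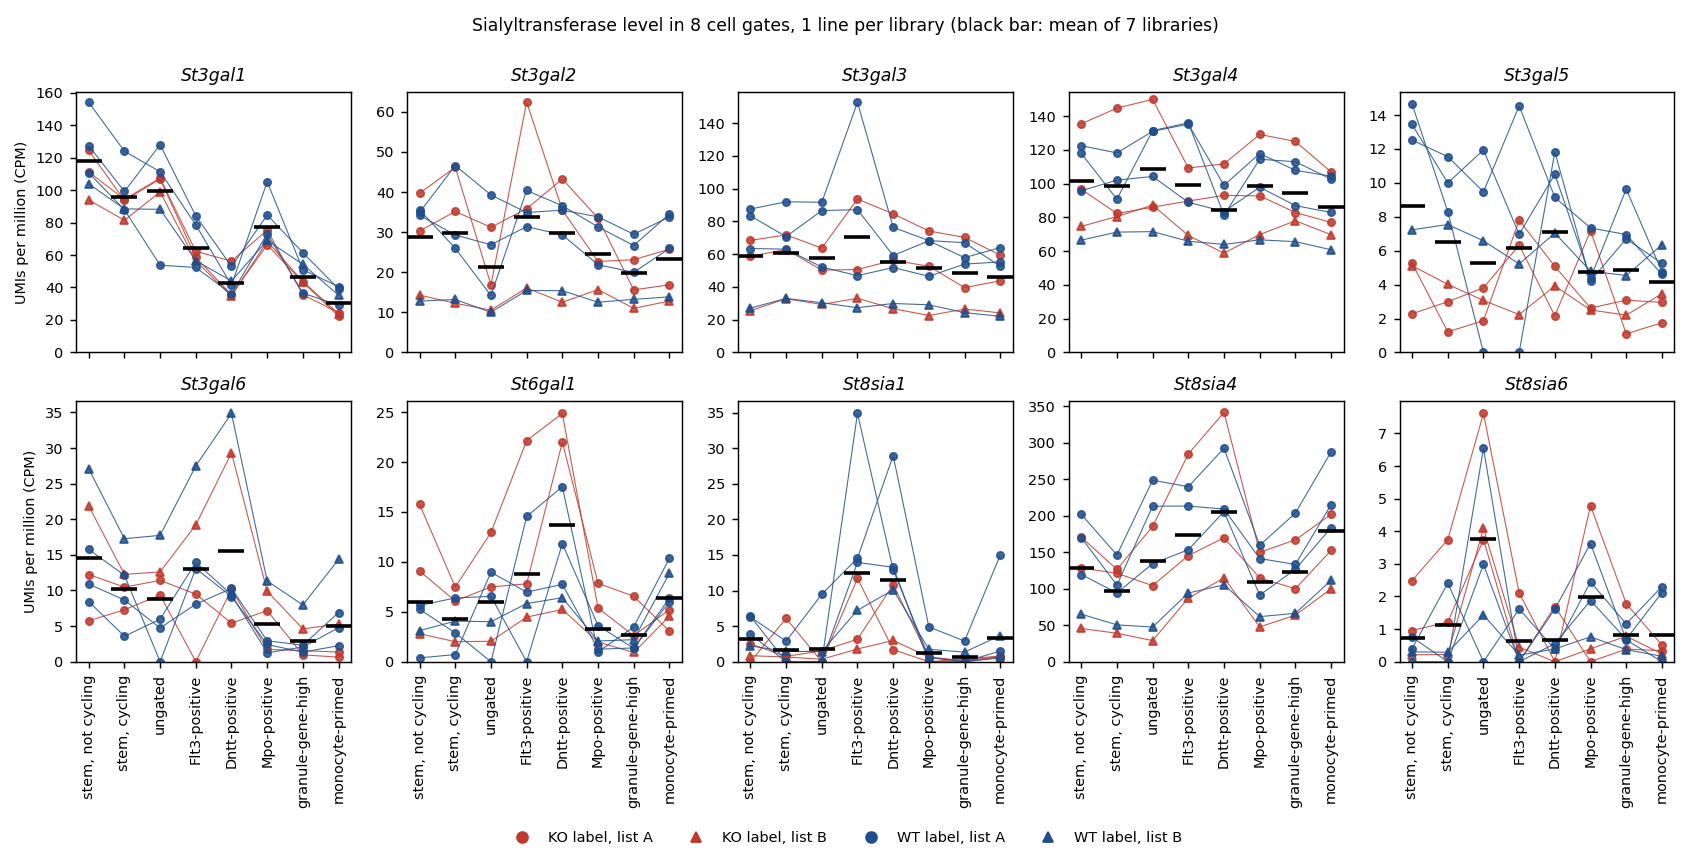
CPM (vertical axes from 0, a scale for each gene) of the 10 genes in 8 gates (horizontal axis), with 1 line per library, colour for the label, symbol for the barcode list and a black bar for the mean of 7 libraries. St3gal1 is below its own stem gate in 7 of 7 libraries in 6 of the 7 other gates, while St6gal1, St8sia1 and St8sia4 stand above their own stem gate in Dntt-positive cells in 7 of 7.

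Over the gates, 25 differences of the 9 testable members from the stem gate passed the test, and they are read against the share of all 11713 genes that passed in the same gate. In Dntt-positive cells 5 of 9 members were called, where 43.5% of all genes were, and in granule-gene-high cells 6 of 9, where 68.7% were. Monocyte-primed cells had 5 of 9 (74.3% of all genes), and cycling stem-gated, Flt3-positive and Mpo-positive cells 3 of 9 each (38.3%, 16.1% and 45.4%). Ungated cells had 0 of 9 (10.3%). In the wider fit of gates with at least 20 cells in 3 or more libraries, added after seeing the data, 4 of 10 members were called in early lymphoid cells (47.4% of genes), 4 in the megakaryocyte gate (43.1%), 5 in erythroid-leaning cells (49.2%) and 6 in neutrophil-gated cells (56.8%). The counts of the megakaryocyte and erythroid-leaning gates include St8sia6. It could pass the count filter through these same gates, so those 2 counts cannot be set against the shares of all genes. The members' median log2 difference was -0.82 in granule-gene-high cells, against -0.05 for all genes, and 0.08 in Dntt-positive cells, against -0.01. The neutrophil gate of KO 1, WT 1 and WT 3 held 1 UMI of St3gal6 and 3 of St6gal1 in all, so the fitted log2 fold changes of these 2 genes there depend on the prior count of the fit.

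**Figure D2:**
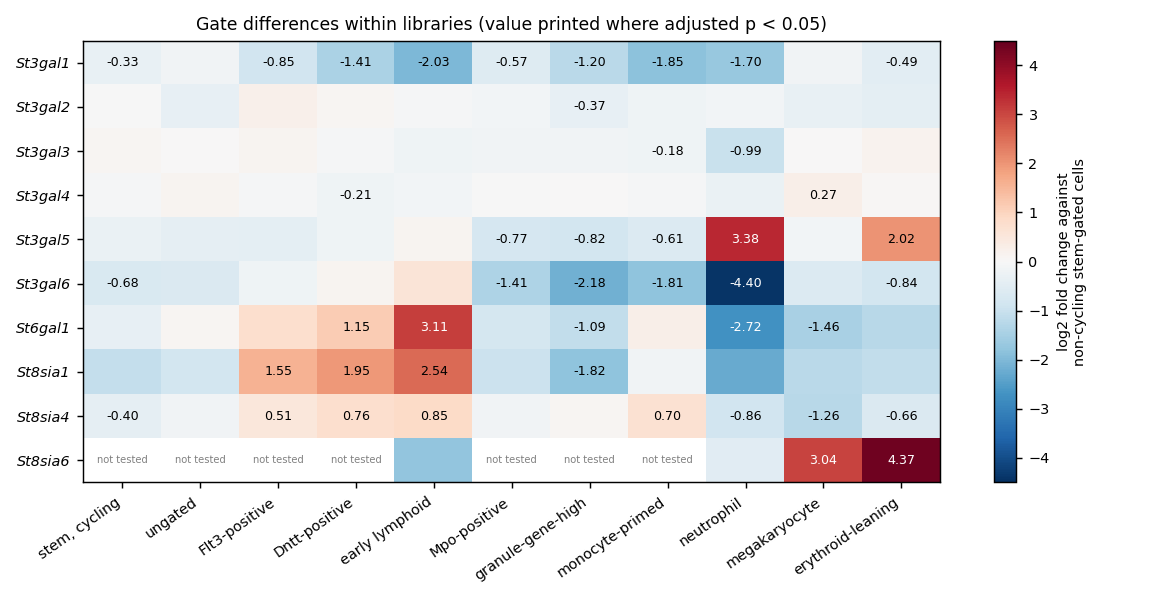
Log2 fold change (colour) of each gene (rows) in each gate (columns) against non-cycling stem-gated cells of the same libraries, with the value printed where the adjusted p is below 0.05. St3gal1 is lower in 9 of the 11 gates, and St6gal1 and St8sia1 are highest in early lymphoid cells at 3.11 and 2.54. St8sia6 entered only the fit with the rarer gates, with 3.04 in the megakaryocyte and 4.37 in the erythroid-leaning gate.

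Between the labels, summed over all kept cells, both ganglioside genes were lower in KO-labelled libraries. St3gal5 stood at 2.91, 4.403 and 4.05 CPM in KO 1 to KO 3 and at 11.2, 13.5, 11.8 and 8.88 CPM in WT 1 to WT 4, so that the groups do not overlap. The fall was 1.47 on the log2 scale (SE 0.19, adjusted p = 0.0137). St8sia1 stood at 1.05, 1.51 and 0.775 CPM in the KO-labelled and at 4.25, 5.99, 13.5 and 4.22 CPM in the WT-labelled libraries, again without overlap and with WT 3 well above the rest. It fell by 2.51 (SE 0.39, adjusted p = 0.0268). These sums rest on 26 to 377 UMIs of St8sia1 and 76 to 793 of St3gal5 in a library.

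St3gal6 was the third member called. It stood at 3.42 and 2.72 CPM in KO 1 and KO 2, against 5.72, 8.44 and 8.91 CPM in WT 1 to WT 3 of the same barcode list, and at 12.9 CPM in KO 3 against 23.2 CPM in WT 4 of the other list. Within each list the KO-labelled libraries were lower, and St3gal6 fell by 1.05 (SE 0.19, adjusted p = 0.0391). That call ended when any 1 library but KO 3 was left out (adjusted p = 0.0555 to 0.114) and in list A alone (adjusted p = 0.0599).

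In all, 3 of 10 members were called lower and 0 higher, where 1.11% of 14608 genes were called in either direction and 0.637% lower. St3gal1 stood at 44.4, 48.6 and 60.1 CPM against 61.0, 87.9, 85.7 and 71.2 CPM, also without overlap, and did not pass (log2 difference -0.50, SE 0.15, adjusted p = 0.129). The share of all genes without overlap across the lists was not computed. The KO-labelled libraries lay below the WT-labelled ones in both lists for 4 of 10 members, St3gal1, St3gal5, St3gal6 and St8sia1, and for 17.4% of all genes. The other 6 did not pass either: St8sia4 differed by -0.03 (SE 0.16), St3gal4 by 0.11 (SE 0.14), St3gal3 by -0.13 (SE 0.15), St3gal2 by -0.18 (SE 0.13), St8sia6 by -0.19 (SE 0.39) and St6gal1 by -0.47 (SE 0.27). The members' median was -0.33 and that of all genes 0.01. Each of the 3 calls ended without the list covariate (St3gal5 adjusted p = 0.634, St8sia1 0.675, St3gal6 1.00), that of St3gal5 without WT 3 (adjusted p = 0.0610) and that of St8sia1 without KO 1 (adjusted p = 0.0862).

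**Figure D3:**
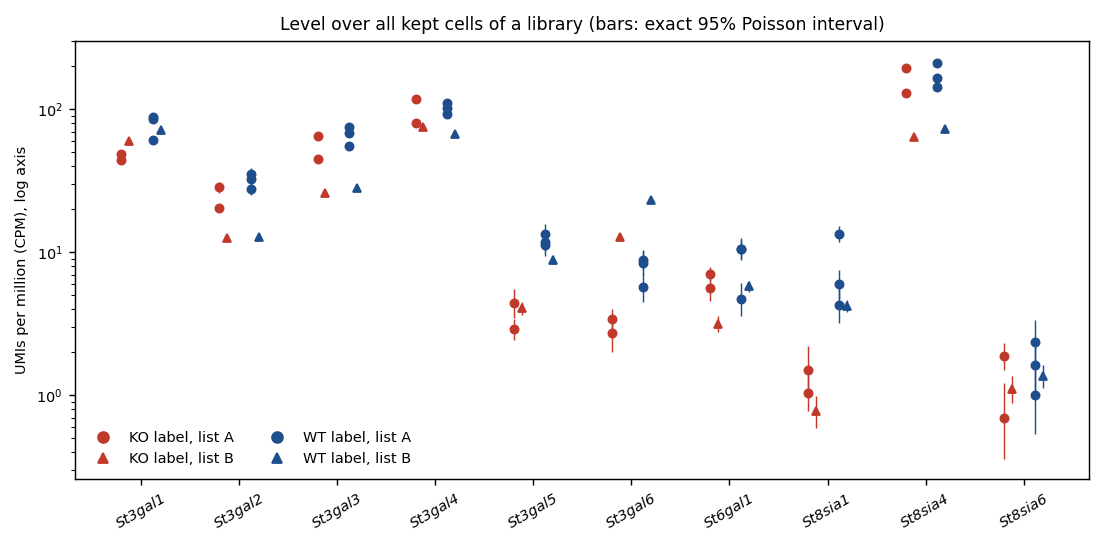
CPM of the 10 genes over all kept cells (vertical log axis, 1 point per library, bars for the exact 95% Poisson interval), with KO-labelled libraries at the left and WT-labelled at the right of each gene. The points of St3gal1, St3gal5 and St8sia1 do not overlap between labels, though St3gal1 was not called, while St3gal6 separates the labels only within a barcode list.

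The mix of gates differed between the labels, and the members differ between gates. Monocyte-primed cells made up 32.3%, 31.3% and 12.95% of the cells of KO 1 to KO 3 and 8.20%, 5.20%, 3.33% and 4.12% of those of WT 1 to WT 4, and Dntt-positive cells 3.19%, 4.35% and 7.61% against 13.3%, 13.2%, 13.8% and 14.8%. In sums without the granule-gene-high, monocyte-primed and neutrophil gates, the log2 difference was -1.20 for St3gal5 (SE 0.19, adjusted p = 0.0249) and -1.98 for St8sia1 (SE 0.34, adjusted p = 0.0445), where 0.37% of genes were called. St3gal6 then differed by -0.29 and no longer passed (adjusted p = 0.999), and St3gal1 by 0.02. Without the Dntt-positive and early lymphoid gates St8sia1 differed by -2.04 and fell just short (adjusted p = 0.0529), and St6gal1 by 0.24 (0.606% of genes called). Without the erythroid-leaning and neutrophil gates, where St3gal5 was high, St3gal5 differed by -1.34 (adjusted p = 0.0299, 1.44% of genes called). Erythroid-leaning cells held 221 of the 793 St3gal5 UMIs of WT 4, or 27.9%.

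Within single gates no member passed the edgeR test over all genes, and few other genes did. Of all genes 0.144% were called in non-cycling and 0.0384% in cycling stem-gated cells, 0.255% in Flt3-positive, 0.151% in Dntt-positive, 0.0961% in Mpo-positive, 0.0185% in granule-gene-high, 0.0995% in monocyte-primed and 0.0887% in ungated cells. At an unadjusted p below 0.05, 11 of the members' 55 tests passed, where 4.98% of all genes' tests over the 8 gates did, and with DESeq2 1 was called. The members' tests are not separate, as they repeat genes over gates of the same libraries. St3gal5 and St8sia1 passed at this level in every gate where they were tested. A gene can also pass the count filter through 1 label alone, so no conclusion is drawn from the 2 shares. St3gal5 pointed the same way in the 5 of these gates where it could be tested. In non-cycling stem-gated cells it stood at 2.28, 5.26 and 5.12 CPM in KO 1 to KO 3 and at 13.4, 14.6, 12.5 and 7.23 CPM in WT 1 to WT 4, with no overlap (log2 difference -1.32, SE 0.33, unadjusted p = 0.0012 and adjusted p = 0.229 in the edgeR fit). In cycling stem-gated cells the groups did not overlap either, with 2.99, 1.22 and 4.01 CPM against 10.0, 8.30, 11.5 and 7.55 CPM (-1.42, SE 0.40). The difference was -1.16 in Dntt-positive (SE 0.37), -1.60 in granule-gene-high (SE 0.41) and -0.97 in monocyte-primed cells (SE 0.35), and KO-labelled libraries lay below WT-labelled ones in both lists in each. That held for 4.5% of all genes in the non-cycling and 4.29% in the cycling stem gate, and for 6.58%, 7.72% and 7.37% in the Dntt-positive, granule-gene-high and monocyte-primed gates.

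St8sia1 could be tested in 2 of the 8 gates. In Dntt-positive cells, where it was high, it stood at 10.8, 1.69 and 2.99 CPM in KO 1 to KO 3 and at 13.3, 12.9, 29.0 and 10.1 CPM in WT 1 to WT 4, which separates the labels within each list but not across lists, as KO 1 lies above WT 4 (log2 difference -1.59, SE 0.43, adjusted p = 0.339). In the stem gate it differed by -1.61 (SE 0.48, adjusted p = 0.503), from 0 to 12 UMIs in a KO-labelled and 10 to 44 in a WT-labelled library. The early lymphoid gate, with 13 cells in KO 2, was fitted as an addition, and 0 members were called there (0.021% of genes). In it St8sia1 differed by -0.90 (SE 1.34, unadjusted p = 0.532) and St3gal5 by -0.39 (SE 0.59, unadjusted p = 0.509) in the edgeR fit. The labels overlapped in it: St8sia1 stood at 14.2, 65.9 and 3.43 CPM in KO 1 to KO 3 and at 12.9, 12.1, 63.7 and 16.3 CPM in WT 1 to WT 4, and the highest of these rests on 7 UMIs. In monocyte-primed cells 5 of the 8 members tested (St3gal1, St3gal2, St3gal5, St3gal6 and St6gal1) lay lower in the KO-labelled libraries of both lists, as did 7.37% of all genes tested there. Of the cells in this gate 86.6%, 85.4% and 79.3% in KO 1 to KO 3 were also past another committed gate, against 72.5%, 63.9%, 48.0% and 59.7% in WT 1 to WT 4, so every KO-labelled library was above every WT-labelled one. Without such cells the label differences in this gate were -1.36 for St3gal6, -0.22 for St3gal1 and 0.07 for St6gal1. St3gal1 differed by -0.14 in the stem gate (SE 0.15) and by -0.54 in monocyte-primed cells (SE 0.16, adjusted p = 0.353), and St3gal6 by -1.81 in monocyte-primed cells (SE 0.40, adjusted p = 0.139). DESeq2 called the last of these (adjusted p = 0.0193).

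**Figure D4:**
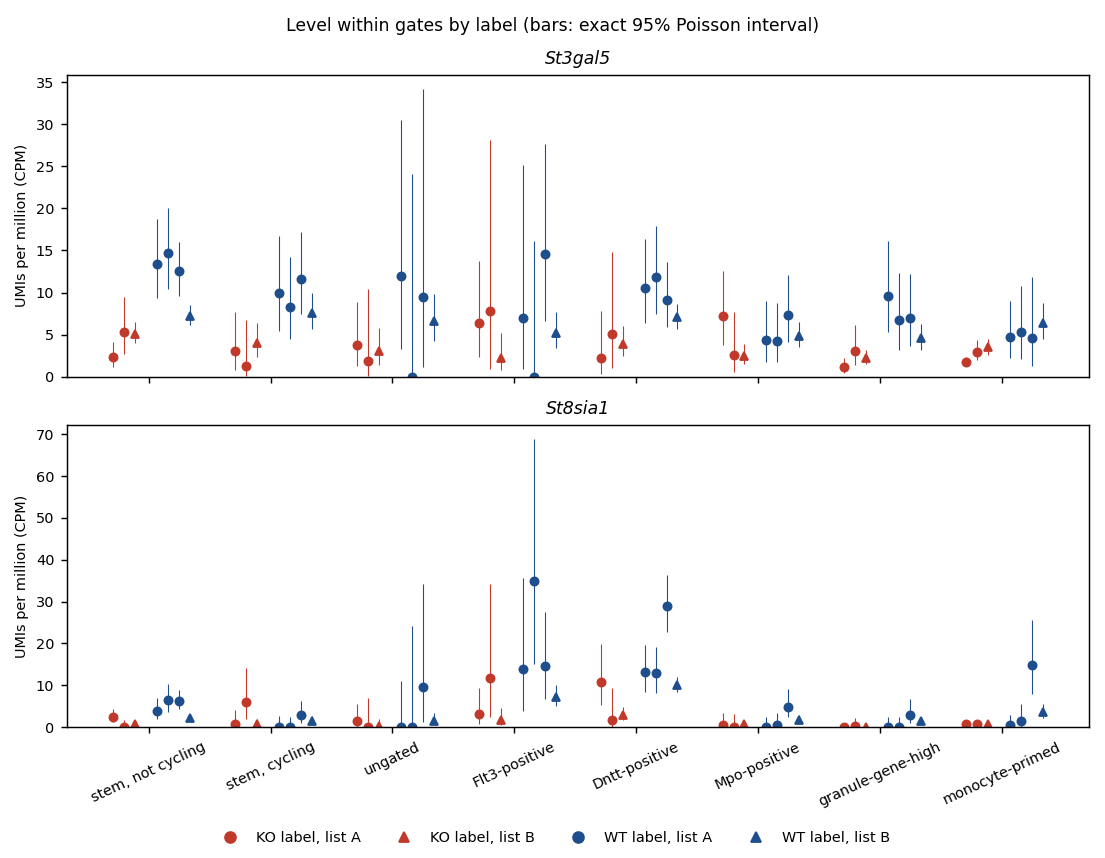
CPM of St3gal5 (top) and St8sia1 (bottom) in 8 gates, 1 point per library in replicate order, with the exact 95% Poisson interval of its count; red is the KO label and blue the WT label, circles are list A and triangles list B. In the stem gate the KO-labelled libraries of St3gal5 reach 5.26 CPM and the WT-labelled ones start at 7.23 CPM; intervals are wide in the smaller gates.

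The label difference of each member was also set against itself between the barcode lists. For none of the 10 members did it differ between lists by the interaction test (adjusted p = 1.00 for each; 0.0137% of genes were called), with list B holding 1 library per label. For St3gal5 the interaction was 0.54 (SE 0.40) and for St8sia1 0.15 (SE 0.82), so these intervals are wide. The lists themselves differed for 62.2% of genes, 4 members among them: St3gal6 was higher in list B by 2.06 (SE 0.19), and St8sia4, St3gal3 and St3gal2 were lower, with log2 differences of -1.02, -0.90 and -0.87. The level of these 4 in CPM therefore cannot be compared across lists. For the other members the lack of a call does not show equal levels, as for St8sia1 (-0.55, SE 0.40) and St6gal1 (-0.51, SE 0.30). Means and SDs over 7 libraries pool both lists.

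Other genes of the sialic acid pathway give the setting. Of 10 further sialyltransferases 6 were testable and 0 were called between the labels, the smallest p being those of St8sia2, another polysialyltransferase (-1.03, adjusted p = 0.0995), St6galnac4 (0.46, adjusted p = 0.126) and St6galnac6 (0.36, adjusted p = 0.265). Of 14 genes that make, activate, carry or remove sialic acid, 12 were testable and 0 were called; Cmah, which turns one sialic acid form into another, differed by -1.31 (adjusted p = 0.108), the lysosomal sialidase Neu1 by 0.88 (adjusted p = 0.153) and Nans, which makes sialic acid phosphate, by 0.50 (adjusted p = 0.156). Of 16 galactosyltransferases and partner enzymes, all testable, 0 were called. Of these B4galnt1, which extends GM3 and GD3, differed by 0.82 (adjusted p = 0.0697), Gcnt2 by -0.76 (adjusted p = 0.110) and Fut8, the core fucosyltransferase, by 0.66 (adjusted p = 0.123). Among 20 readers and carriers 15 were testable and 3 rose in KO-labelled libraries, where 69 of all 14608 genes were called higher. Among the 3 were Selp (P-selectin) by 1.54 (adjusted p = 0.0115) and Lgals1 (galectin-1) by 1.57 (adjusted p = 0.0360). These sums hold all gates, whose mix differed between the labels, and 0 genes were called without the list covariate. Within gates Selp rose in non-cycling stem-gated (1.47), Dntt-positive (2.06), Mpo-positive (1.60) and monocyte-primed cells (1.30), with adjusted p between 0.00632 and 0.0479. Fut8 rose in Flt3-positive cells (1.15, adjusted p = 0.00718) and Dntt-positive cells (0.86, adjusted p = 0.0231).

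Across the 8 gate means, the genes whose pattern was most like that of St3gal1 were Wdfy3, Prkg1 and Rai14 (Pearson r of log2(CPM + 1) of 0.996, 0.995 and 0.995 among 8113 genes compared). For St8sia4 they were Lbh, Slc29a3 and Bcr (r = 0.970, 0.964 and 0.954). These r rest on 8 points that share 7 libraries and carry no p.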

How the data were processed

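Gene counts for single LSK cells of 3 libraries labelled B4galt1 KO and 4 labelled WT were used as deposited: UMI counts per gene and barcode made with Cell Ranger 7.0.0, per the file headers, from a 3′ library kit, per the labels' protocols. The submitters' processing notes also name Seurat 4.4.0 and mm10. Cells with at least 1000 UMIs, at least 500 genes and at most 10% mitochondrial UMIs were kept, and each entered the first marker gate it passed; no doublet caller was run. Counts were summed per library and gate and tested with edgeR 4.0.16 in R 4.3.3 (quasi-likelihood, TMM, filterByExpr, robust; two-sided, Benjamini-Hochberg over all genes, threshold 0.05), with barcode list as covariate for the label and library as block for gates with at least 20 cells in every library. CPM are untransformed and not divided by transcript length, so levels are compared for 1 gene at a time. Every member is reported; of the pathway lists those called, or the 3 of smallest p, are named, and a few other genes are not reported here. DESeq2 1.42.0, other filters, gates, thinning to 3000 UMIs and leaving out each library were alternatives. Fits were tested on simulated data. The 10 genes, the lists and the gates were chosen with earlier results of these data known. No counted gene overlaps a member on its own strand; 7 members overlap one on the other strand, and whether counting used strand is not given in the sources used here. Promoter sequences are from RefSeq and cover 8 of the 10 genes.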

Additional observations from a re-analysis of the deposited data

How the results depend on the processing

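Of the differences between gates 25 were called, which became 12 with cells thinned to 3000 UMIs, where the granule-gene-high and monocyte-primed gates no longer held 20 cells in every library, and lay at 22 to 30 under the other alternatives (23 to 26 when 1 library was left out). Thinning turned St3gal4 in Dntt-positive cells to 0.0093, and leaving out cells past more than 1 committed gate turned St3gal3 and St3gal5 in monocyte-primed cells to 0.13 and 0.15. Between the labels over all kept cells, 3 members called became 4 with DESeq2, 2 in list A and 0 without the list covariate. They became 1 without the Dntt-positive and early lymphoid gates, and 1 to 3 when 1 library was left out. Genes called of all tested, 162, became 0 without the covariate, 362 in list A, 856 with DESeq2, 547 with no filter, 53 without the granule-gene-high, monocyte-primed and neutrophil gates, 88 without the Dntt-positive and early lymphoid gates, and 16 (without WT 3) to 349 (without KO 3) when 1 library was left out. Within gates, 0 members became 1 with DESeq2, 6 with no filter, 1 with stricter gates and 0 to 1 when 1 library was left out, while 90 genes became 0 without the covariate, 228 with DESeq2, 1023 with no filter and 35 to 178 when 1 library was left out. The list interaction called 2 genes, 71 with no filter and 1 to 92 when 1 library was left out, and 0 members throughout.

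Some label differences changed sign. Without the granule-gene-high, monocyte-primed and neutrophil gates St3gal1 differed by 0.019, St3gal2 by 0.018 and St8sia6 by 0.49, and without the Dntt-positive and early lymphoid gates St6gal1 by 0.24 and St8sia4 by 0.070. When 1 library was left out St3gal4 ran from -0.0082 to 0.23, St8sia4 from -0.19 to 0.064 and St8sia6 from -0.71 to 0.11. St6gal1 in monocyte-primed cells was 0.074 without cells past more than 1 committed gate, and St3gal6 in Dntt-positive cells 0.022 without the covariate. Of 357 recomputed gate differences 337 kept direction and call, as did 159 of 190 label differences over all kept cells and 255 of 267 within gates. The causes were not tested.

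The replicate numbers were not taken to pair the samples: deviations from the group means over 9163 genes correlated at 0.690 for KO 1 with WT 1, 0.890 for KO 2 with WT 2 and -0.534 for KO 3 with WT 3, and KO 3 correlated best with WT 4 of its own barcode list. KO 1 and KO 2 each correlated best with the WT library of their own number, a hint from the data and not the design. The replicate block in place of the barcode list called 0 members and 1 gene over all kept cells and 1 member within gates (St8sia1 in Dntt-positive cells), and turned St3gal6 to 0.31 in the stem gate and 0.67 in Dntt-positive cells. The replicate block with the list called 4 members and 2277 genes over all kept cells, 1 member (St3gal5 in the stem gate) and 1033 genes within gates, and gave -0.012 for St3gal4. In that fit WT 4 is alone in its block, and the list term takes up the difference between KO 3 and WT 3. Its label difference therefore rests on KO 1, KO 2, WT 1 and WT 2, which leaves little to measure the spread, and no conclusion is drawn from its counts.

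Depth limits the rarer transcripts: the stem gate of a library held 0 to 44 UMIs of St8sia1, and St8sia6 could not be tested in the 8 gates. Gates are marker thresholds, doublets were not removed by a caller, and list B holds 1 library per label.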

Other observations

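Some gates held 20 cells in 1 or 2 libraries and enter no comparison. The B-lineage gate (genes such as Cd79a, Ebf1 and Igll1) held 62 cells in WT 4. In these cells 104 UMIs of St3gal6 gave 116 CPM (exact 95% Poisson interval 94.8 to 141), against 27.1 CPM in the stem gate of the same library, and 64 UMIs of St6gal1 gave 71.4 CPM (55.0 to 91.2), against 3.11 CPM. St8sia4 stood at 58.0 CPM there (43.3 to 76.1), against 65.1 CPM in the stem gate.

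The T, NK and innate lymphoid gate held 28 cells in KO 3 and 112 in WT 4. St3gal6 stood at 27.3 CPM in the first (exact 95% Poisson interval 12.5 to 51.8) and at 42.9 CPM in the second (31.7 to 56.9). The MHC class II high gate held 23 and 106 cells in the same libraries, and St3gal5 stood there at 38.1 CPM (17.4 to 72.3) and 24.9 CPM (16.9 to 35.3), against 5.12 and 7.23 CPM in their stem gates. The content of this gate differed between these libraries, as the antibody gene Igkc stood at 42.5 CPM in one and 22605 CPM in the other. The part of this in the St3gal5 levels was not tested. All intervals cover counting error within these libraries only.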
